A study of Mus musculus with 12 samples.

Results

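Prx, Pmp22, Pmp2, Ncmap, Drp2 and Egr2 are genes that myelinating Schwann cells express, and their transcripts were followed through the RNA of 12 mouse spinal cords. The 6 genes were taken from the count table by their symbols, out of 45906 genes, and all 6 passed the filter on low counts that 20155 genes passed. The mice were 7 months old, on a C57BL/6 background, and fell into 4 genotypes of 3 mice each: Plekhg5+/+, Plekhg5-/-, Plekhg5+/+ SOD1-G93A and Plekhg5-/- SOD1-G93A. Plekhg5 encodes an activator of small GTPases that takes part in autophagy in motoneurons, and SOD1-G93A is a human transgene with a mutation that causes amyotrophic lateral sclerosis, here in its low copy, slowly progressing mouse line. The cross was made to see how loss of Plekhg5 changes the phenotype of the SOD1-G93A mice. The label of each sample says spinal cord, and the sources used here do not say how the nerve roots were handled at dissection.

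Myelin is made by oligodendrocytes inside the spinal cord and by Schwann cells in the nerve roots and peripheral nerves. Both use myelin basic protein and proteolipids, but compact peripheral myelin holds Pmp22 and Pmp2, and the outer surface of the Schwann cell is built on periaxin (Prx) and Drp2, which link it to the basal lamina. Egr2 (Krox20) is the transcription factor that, with Sox10, switches on these genes. The border between both kinds of myelin lies where the roots enter and leave the cord, so that a piece of cord can carry a varying length of root. Some of these genes are also used elsewhere: Pmp22 by fibroblasts, endothelial cells and epithelia, and Egr2 as an activity-regulated gene of neurons.

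The promoter windows are printed because all 6 genes were higher in each Plekhg5-/- SOD1-G93A than in each Plekhg5-/- mouse, as were 7.26% of all genes. None of these differences passed the test after adjustment over all genes, as given below. Windows of 250 bases, given as upstream of a start in RefSeq (GRCm38.p6), were available for 4 of the 6 genes. Pmp2 and Drp2 had no entry. The letters GTGGGNG, which lie in the core of the motif bound by Egr proteins, and ACAANG, which lie in that of Sox proteins, were searched on both strands, and matches are in capitals. The Prx window is chr7:27499074-27499323 on the plus strand, that of Pmp22 is chr11:63128732-63128981 on the plus strand, that of Ncmap is chr4:135398228-135398477 on the minus strand and that of Egr2 is chr10:67535249-67535498 on the plus strand. In the annotation used for counting, Egr2 starts at chr10:67534469, so its window and both matches in it lie inside the counted gene. Prx starts there at 27499305 and Ncmap, on the minus strand, at 135398240, so their windows run into the first bases of these genes. The sequences are written 5′ to 3′ in the direction of the gene.
Prx: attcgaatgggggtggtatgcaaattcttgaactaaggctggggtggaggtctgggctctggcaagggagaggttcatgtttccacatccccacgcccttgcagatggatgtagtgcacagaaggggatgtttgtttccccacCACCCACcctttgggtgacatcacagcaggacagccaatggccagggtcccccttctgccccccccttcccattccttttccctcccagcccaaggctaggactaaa
Pmp22: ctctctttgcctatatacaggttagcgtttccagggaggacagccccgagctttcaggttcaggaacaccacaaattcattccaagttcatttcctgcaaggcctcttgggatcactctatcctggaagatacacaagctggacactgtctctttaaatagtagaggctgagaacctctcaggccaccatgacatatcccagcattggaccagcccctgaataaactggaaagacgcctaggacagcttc
Ncmap: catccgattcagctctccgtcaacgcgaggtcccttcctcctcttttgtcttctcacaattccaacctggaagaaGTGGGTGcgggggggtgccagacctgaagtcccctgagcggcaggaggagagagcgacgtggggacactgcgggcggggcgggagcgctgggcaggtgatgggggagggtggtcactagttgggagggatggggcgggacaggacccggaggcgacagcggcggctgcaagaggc
Egr2: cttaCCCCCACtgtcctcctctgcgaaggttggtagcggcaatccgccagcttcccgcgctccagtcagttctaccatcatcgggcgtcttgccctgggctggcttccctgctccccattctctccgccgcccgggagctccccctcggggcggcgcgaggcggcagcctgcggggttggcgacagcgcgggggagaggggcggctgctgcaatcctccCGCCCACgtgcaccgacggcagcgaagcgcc
The Prx and Ncmap windows held 1 match to GTGGGNG each, the Egr2 window held 2 and the Pmp22 window held 0. ACAANG had 0 matches in the 4 windows. Of 26997 mouse promoter windows of the same length, 27.8% held GTGGGNG and 36.6% held ACAANG. These are counts of letters in short windows and say nothing about binding.

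The 12 libraries held 30415643 to 38743628 counts (median 32714351). Plekhg5 was at 22.9 ± 3.08 CPM (counts scaled to library size; SD, n = 3) in Plekhg5+/+ and 22.4 ± 2.19 in Plekhg5+/+ SOD1-G93A mice, against 3.98 ± 0.712 in Plekhg5-/- and 4.26 ± 0.413 in Plekhg5-/- SOD1-G93A mice. Human SOD1 was at 4421 to 5638 CPM in the 6 transgenic libraries and at most 5.47 CPM in the others. Both match the labels. Y-linked transcripts were present in 3 of 3 Plekhg5+/+, 2 of 3 Plekhg5-/-, 2 of 3 Plekhg5+/+ SOD1-G93A and 1 of 3 Plekhg5-/- SOD1-G93A libraries, so sex was not balanced over the genotypes. Some libraries held transcripts of other tissue. The 6 skeletal muscle genes (Acta1, Ckm, Mylpf, Tnnt3, Myh1 and Myh4) together reached 147 CPM in Plekhg5+/+ mouse 3, 47.5 in Plekhg5-/- mouse 2, 79.9 in Plekhg5+/+ SOD1-G93A mouse 3 and 36.9 in Plekhg5-/- SOD1-G93A mouse 2, against 2.54 to 7.77 CPM in the other 8 libraries. The 7 sensory ganglion neuron genes together were at 28.8 CPM in Plekhg5-/- SOD1-G93A mouse 2 and at 3.58 to 5.83 CPM in the other 11. Scn10a, a sodium channel of pain-sensing neurons in the ganglia, was at 8.21 CPM in that mouse and at most 0.567 CPM elsewhere. The caudal Hox genes, which are expressed in the lower cord, summed to 34.3 CPM in Plekhg5-/- mouse 1 and to 51.8 to 91.8 CPM in the other libraries.

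Transcripts of all 6 genes were found in each of the 12 cords. Per kilobase of exon, the mean level over the 12 libraries was 76.4 CPM per kb for Pmp22, 9.37 for Drp2, 6.54 for Prx, 2.72 for Ncmap, 2.63 for Pmp2 and 0.531 for Egr2. Together, the 6 genes took 0.0213% to 0.0481% of all counts, while the 12 central myelin genes summed to 23301 to 33008 CPM. The spread of the single genes over the 12 libraries was unequal: it was 19.8-fold for Pmp2, 6.57-fold for Prx and 6.49-fold for Egr2, but 2.91-fold for Ncmap, 2.12-fold for Pmp22 and 1.95-fold for Drp2. In bulk tissue, fewer Schwann cells and less RNA per Schwann cell cannot be told apart.

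Egr2, the regulator of the group, was the lowest of the 6 genes, with 22 to 144 counts per library. Egr2 was at 2.61, 3.75 and 0.674 CPM in Plekhg5+/+ mice 1, 2 and 3 and at 0.936, 1.45 and 1.23 CPM in the Plekhg5-/- mice. With the transgene, Egr2 was at 2.80, 2.57 and 1.86 CPM in Plekhg5+/+ SOD1-G93A mice and at 3.70, 4.37 and 3.44 CPM in Plekhg5-/- SOD1-G93A mice. Plekhg5+/+ mouse 3 was the lowest of all 12 libraries, below each Plekhg5-/- mouse. The Plekhg5-/- SOD1-G93A values did not overlap with those of either Plekhg5-/- or Plekhg5+/+ SOD1-G93A mice, but the highest Plekhg5+/+ mouse lay among them.

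Pmp22, the tetraspan protein whose gene dosage decides common inherited neuropathies, was the most abundant of the 6 genes. Pmp22 was at 207, 203 and 130 CPM in Plekhg5+/+ mice and at 175, 137 and 152 CPM in Plekhg5-/- mice. In the transgenic mice it was at 149, 194 and 183 CPM with Plekhg5 and at 234, 212 and 276 CPM without. The 3 Plekhg5-/- SOD1-G93A libraries were the highest 3 of the 12, and Plekhg5+/+ mouse 3 was the lowest.

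Pmp2, a fatty acid binding protein of the cytoplasmic face of compact myelin, varied most, and rested on 16 to 342 counts. Pmp2 was at 2.35, 2.58 and 0.490 CPM in Plekhg5+/+ mice and at 1.05, 0.753 and 1.80 CPM in Plekhg5-/- mice. Plekhg5+/+ SOD1-G93A mice were far apart, at 0.714, 5.87 and 3.06 CPM, an 8.22-fold range within a genotype. Plekhg5-/- SOD1-G93A mice were at 9.71, 5.83 and 8.86 CPM. The lowest of these was just below the highest Plekhg5+/+ SOD1-G93A mouse, so those groups overlapped by 1 library.

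Ncmap, a small membrane protein of non-compact peripheral myelin, had fractional counts in 8 of 12 libraries, since reads that matched more than once or overlapped several features were divided. Ncmap was at 5.81, 8.61 and 5.47 CPM in Plekhg5+/+ and at 4.83, 5.41 and 5.66 CPM in Plekhg5-/- mice. It was at 3.73, 5.81 and 5.68 CPM in Plekhg5+/+ SOD1-G93A and at 8.87, 9.17 and 10.9 CPM in Plekhg5-/- SOD1-G93A mice. The last 3 values were above all 9 others, with Plekhg5+/+ mouse 2 close below. Ncmap lies on the same chromosome as Plekhg5, at chr4:135369576-135398240 (GRCm38) and 16.7 Mb from it, so that sequence inherited along with the Plekhg5 allele cannot be told apart from loss of Plekhg5 at this gene.

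Prx, the scaffold protein of the Schwann cell's outer surface, followed the differences between single mice most closely. Prx was at 49.9, 52.4 and 14.2 CPM in Plekhg5+/+ mice, a mean of 38.9 ± 21.4 CPM (SD, n = 3). In Plekhg5-/- mice it was at 11.1, 13.5 and 22.1 CPM and in Plekhg5+/+ SOD1-G93A mice at 12.3, 31.2 and 26.5 CPM. In Plekhg5-/- SOD1-G93A mice it was at 61.3, 46.8 and 73.0 CPM, a mean of 60.4 ± 13.1 CPM. Within the Plekhg5+/+ genotype, the highest mouse was 3.69-fold above the lowest. The difference fitted between Plekhg5-/- SOD1-G93A and Plekhg5-/- mice was 3.88-fold. The first is a ratio of single mice and the second a ratio of group levels, so their sizes cannot be compared directly.

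Drp2, the dystrophin-related protein that binds Prx and dystroglycan, lies on the X chromosome and had counts of 1908 to 4204. Drp2 was at 93, 109 and 61.9 CPM in Plekhg5+/+ mice and at 55.8, 65.2 and 68.1 CPM in Plekhg5-/- mice. It was at 69.0, 78.1 and 69.9 CPM in Plekhg5+/+ SOD1-G93A mice and at 92.5, 90.6 and 109 CPM in Plekhg5-/- SOD1-G93A mice. Its steps between mice were in the same order as those of Prx but smaller. In each of the 6 genes, mice 1 and 2 of the Plekhg5+/+ genotype lay above mouse 3.

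**Figure D1:**
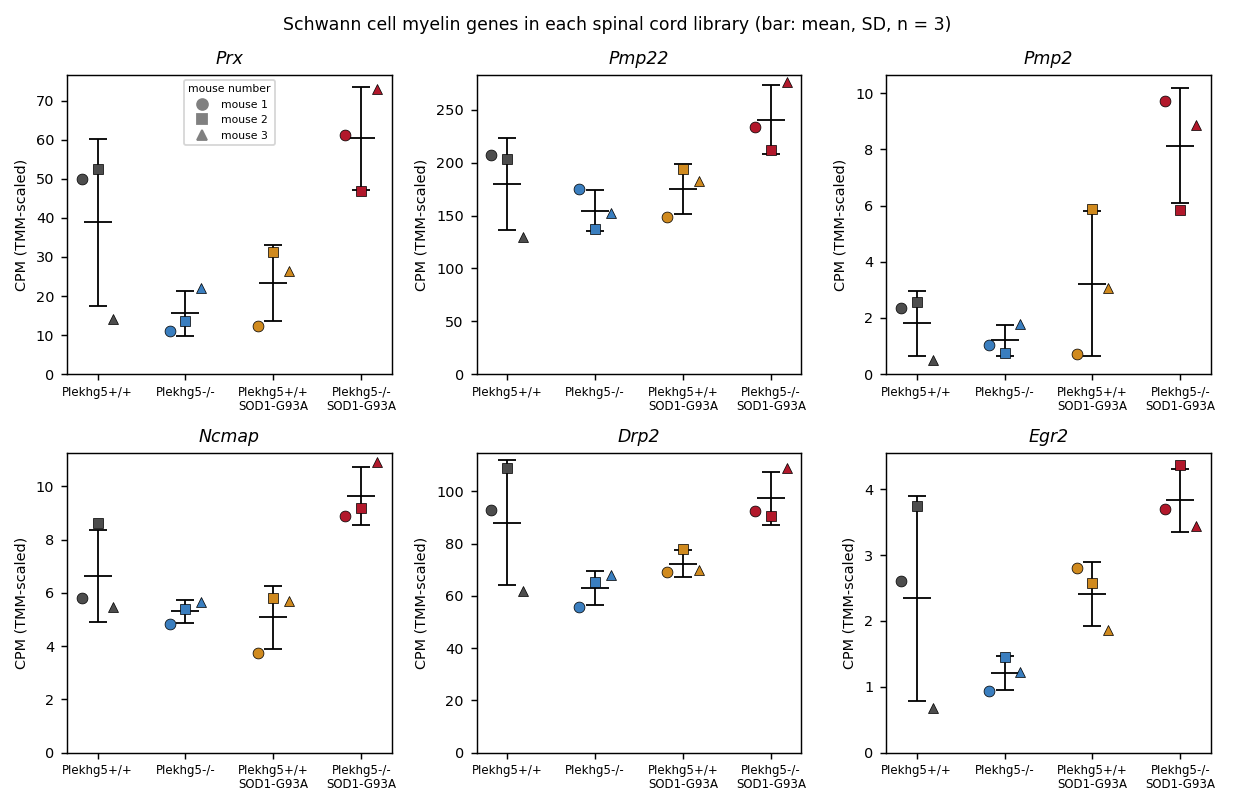
Values of the 6 genes in each library, in TMM-scaled CPM from 0 (y axis), by genotype (x axis); symbols mark the mouse number, and bars give the mean and SD of 3 mice. Plekhg5+/+ mouse 3 is the lowest of its genotype in each panel, for example at 14.2 against 49.9 and 52.4 CPM for Prx. The Plekhg5-/- SOD1-G93A libraries are above all Plekhg5-/- libraries in each panel, as they are for 7.26% of all genes.

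Between genotypes, none of the 6 genes passed the test after adjustment over all genes, in spite of large differences in the means (edgeR's quasi-likelihood test, Benjamini-Hochberg adjusted p under 0.05). The widest were those of the transgene on the Plekhg5-/- background. There, Plekhg5-/- SOD1-G93A was above Plekhg5-/- by a log2 fold change of 2.76 (SE 0.690, adjusted p = 0.535) for Pmp2, by 1.96 (SE 0.515, adjusted p = 0.617) for Prx and by 1.67 (SE 0.428, adjusted p = 0.523) for Egr2. The differences were smaller for Ncmap, at 0.86 (SE 0.192, adjusted p = 0.381), for Pmp22, at 0.64 (SE 0.170, adjusted p = 0.555), and for Drp2, at 0.63 (SE 0.163, adjusted p = 0.531). The count was 0 of 6 genes called, where edgeR called 0.00496% of all genes, the human SOD1 transgene itself. All 6 were higher at an unadjusted p under 0.05, against 3.27% of all genes, and in all 6 the 3 libraries of both groups did not overlap, against 7.26% of all genes. The median log2 difference was 1.27 over the 6 genes and -0.005 over all genes tested. DESeq2 without a fold change prior called 2 of 6 genes, Ncmap (adjusted p = 0.0198) and Egr2 (adjusted p = 0.0399), and 0.133% of all genes. DESeq2 was run without the filter on low counts. Its shares here and below are of 33715 genes, many with few counts, while those of the main edgeR fit are of 20155. When edgeR was run on these genotypes alone, it called Pmp2 and Egr2 (adjusted p = 0.0285 for each) and 0.102% of all genes. Without Plekhg5+/+ mouse 3, it called Egr2 (adjusted p = 0.0315) and 0.0244% of all genes. Of 12 fits that each left out 1 library, this was the only 1 that called any of the 6 genes.

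With Plekhg5 present, the differences of the transgene were smaller and of mixed sign. Plekhg5+/+ SOD1-G93A minus Plekhg5+/+ was a log2 difference of -0.74 (SE 0.501) for Prx, -0.38 (SE 0.195) for Ncmap, -0.28 (SE 0.162) for Drp2, -0.04 (SE 0.169) for Pmp22, 0.04 (SE 0.414) for Egr2 and 0.82 (SE 0.676) for Pmp2. The adjusted p was 0.329 to 0.975 in edgeR, 0 of 6 were called against 2.47% of all genes, and 0 of 6 reached an unadjusted p under 0.05 against 18.2% of all genes. DESeq2 without a prior also called 0 of 6, against 3.44% of all genes. These estimates were wide for Prx, which spanned a 3.69-fold range in Plekhg5+/+ and a 2.53-fold range in Plekhg5+/+ SOD1-G93A mice. The sign of Egr2 turned to -0.41 without Plekhg5+/+ mouse 3.

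Loss of Plekhg5 without the transgene went with lower values, none past the threshold. Plekhg5-/- minus Plekhg5+/+ was -1.32 (SE 0.512, adjusted p = 0.929) for Prx, -0.96 (SE 0.438, adjusted p = 0.929) for Egr2, -0.59 (SE 0.730, adjusted p = 0.997) for Pmp2 and -0.48 (SE 0.163, adjusted p = 0.882) for Drp2 in log2 units. Ncmap was at -0.32 (SE 0.194) and Pmp22 at -0.22 (SE 0.169). Of the 6 genes 0 were called by edgeR, against 0.0298% of all genes, and 0 by DESeq2 without a prior, against 0.101%. Prx, Drp2 and Egr2, 3 of 6, were lower at an unadjusted p under 0.05, against 2.79% of all genes, but the groups overlapped for all 6, where 4.03% of all genes were lower without overlap. Of 12 fits that each left out 1 library, 1 called any of the 6 genes. It was the fit without Plekhg5+/+ mouse 3, which left only 2 mice in the Plekhg5+/+ group. There, edgeR called Drp2 (-0.68, adjusted p = 0.0341) and Egr2 (-1.40, adjusted p = 0.0359) lower in Plekhg5-/- mice, and 0.288% of all genes. That mouse was the lowest of its genotype for each of the 6 genes. Leaving it out raises the group mean of each, so these calls depend on that choice and are no separate evidence. The muscle transcripts named above were highest in the same mouse, at 147 CPM, and their part in the result was not tested.

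With the transgene in both groups, loss of Plekhg5 went with higher values. Plekhg5-/- SOD1-G93A minus Plekhg5+/+ SOD1-G93A was a log2 difference of 1.37 (SE 0.502) for Prx, 1.34 (SE 0.629) for Pmp2, 0.93 (SE 0.193) for Ncmap, 0.67 (SE 0.403) for Egr2, 0.46 (SE 0.169) for Pmp22 and 0.43 (SE 0.162) for Drp2. Adjusted p-values in edgeR ran from 0.275 for Ncmap to 0.623 for Egr2, and 0 of 6 genes were called against 0.0347% of all genes. Prx, Pmp22, Ncmap and Drp2, 4 of 6, were higher at an unadjusted p under 0.05, against 3.59% of all genes. In 5 of 6, all but Pmp2, the 3 libraries of both groups did not overlap, against 9.47% of all genes. DESeq2 without a prior called Ncmap (adjusted p = 0.00705) and 0.214% of all genes. This comparison and the comparison with Plekhg5-/- mice share the Plekhg5-/- SOD1-G93A libraries, so they are not independent of each other.

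Whether the transgene's difference itself depended on Plekhg5 was asked with the interaction term. It was 2.69 (SE 0.717, adjusted p = 0.396) for Prx, 1.94 (SE 0.962, adjusted p = 0.570) for Pmp2, 1.63 (SE 0.595, adjusted p = 0.463) for Egr2 and 1.24 (SE 0.273, adjusted p = 0.338) for Ncmap in log2 units. Drp2 was at 0.91 (SE 0.230, adjusted p = 0.353) and Pmp22 at 0.68 (SE 0.240, adjusted p = 0.458). edgeR called 0 of 6, and 0% of all genes, at the adjusted threshold, while 5 of 6 (all but Pmp2) had a positive term at an unadjusted p under 0.05, against 3.87% of all genes. DESeq2 without a prior called Ncmap (adjusted p = 0.0129) and Drp2 (adjusted p = 0.0303), and 0.282% of all genes. Without Plekhg5+/+ mouse 3, edgeR called Drp2 (1.12, adjusted p = 0.0246) and Egr2 (2.08, adjusted p = 0.0307), and 0.195% of all genes. Of 12 fits that each left out 1 library, this was the only 1 that called any of the 6 genes. As that mouse was the lowest of its genotype for each of them, these calls also depend on the choice. The term takes the spread of all 4 groups, of which Plekhg5+/+ was the widest for all but Pmp2 in SD as a share of the mean.

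**Figure D2:**
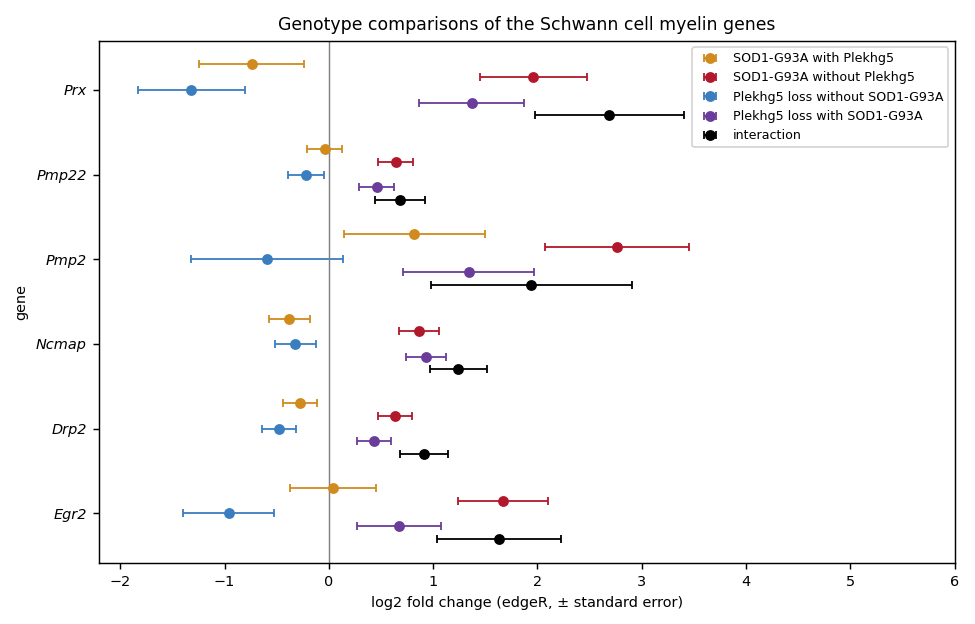
Log2 fold changes of the 6 genes (x axis, edgeR, bars ± standard error) in the 4 genotype comparisons and the interaction, by gene (y axis). Differences of the transgene without Plekhg5 are on the right of 0 for all 6 genes (0.63 to 2.76), while those of the transgene with Plekhg5 lie on both sides (-0.74 to 0.82).

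To describe the spread between mice of a genotype, an index was formed as the mean over the 6 genes of log2 CPM, set to a mean of 0 in Plekhg5+/+ mice. It was 0.32, 0.56 and -0.88 in Plekhg5+/+ mice 1, 2 and 3, and -0.68, -0.60 and -0.27 in Plekhg5-/- mice. In Plekhg5+/+ SOD1-G93A mice it was -0.53, 0.36 and 0.04, and in Plekhg5-/- SOD1-G93A mice 0.91, 0.74 and 1.04. The 3 Plekhg5-/- SOD1-G93A cords thus had the highest index values of the 12. The SD within a genotype was 0.771 in Plekhg5+/+, 0.451 in Plekhg5+/+ SOD1-G93A, 0.217 in Plekhg5-/- and 0.150 in Plekhg5-/- SOD1-G93A mice (n = 3 each). As a score over chosen genes it was given no test.

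Within genotypes, the 6 genes did not follow each other equally. Drp2 ranked the 3 mice in the order of Prx in 4 of 4 genotypes and Ncmap in 3 of 4, but Pmp22 and Pmp2 in 2 of 4 and Egr2 in 1 of 4. The correlation of each gene's deviations from its genotype means with the mean of the other 5 genes was 0.958 for Prx, 0.885 for Drp2, 0.829 for Pmp2, 0.813 for Pmp22, 0.732 for Ncmap and 0.586 for Egr2 (Pearson's r over 12 libraries, which share their scaling, as a description with no test). Egr2 departed most in Plekhg5+/+ SOD1-G93A mouse 1, where it was the highest of its genotype while Prx and Pmp2 were the lowest. That mouse also had the highest microglial total, at 847 CPM for 8 genes against 431 and 459 CPM in mice 2 and 3. What part this has in the Egr2 value was not tested.

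Genes outside the 6 showed which transcripts changed with the index between mice of a genotype. With genotype in the model, edgeR called 4 of 20149 genes (0.0199%) for the slope on the index, all with a positive slope. Of these, 3 are described here. Cldn19, a claudin of Schwann cell tight junctions, had a log2 slope of 1.58 per unit of the index (SE 0.161, adjusted p = 0.00397), and Dhh, the hedgehog ligand by which Schwann cells direct the perineurium, had 1.23 (SE 0.155, adjusted p = 0.0262). Plekha4, a phosphoinositide-binding adaptor, had 0.88 (SE 0.122, adjusted p = 0.0480) and was on none of the lists. Cldn19 was called in 22 of 22 settings, while Dhh was called in 11 and Plekha4 in 10. Without Plekhg5+/+ mouse 3 the number called was 54 (0.264% of genes), against 2 to 7 with any other single library left out. Cldn19 was then 1 of the 2 with a positive slope, and the 52 with a negative slope included the complement genes C1qa, C1qb and C1qc and the microglial receptor Trem2. The microglial total of 847 CPM in Plekhg5+/+ SOD1-G93A mouse 1, the mouse with the lowest index of its genotype, moves with these slopes, and its part in them was not tested.

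Cldn19, Dhh and Gldn, the gliomedin that gathers sodium channels at peripheral nodes, ranked the mice as Prx did in 4 of 4 genotypes. Of the 9 other Schwann cell genes, 2 were called for the index and 6 had a positive slope at an unadjusted p under 0.05, against 1.25% of all genes. Their median slope was 0.69, beside -0.005 for all genes. The other 3 were Cdh19, which marks Schwann cell precursors, at -0.12 (SE 0.114), the neurotrophin receptor Ngfr at -0.13 (SE 0.160) and the artemin receptor Gfra3 at 0.87 (SE 0.425). Genes were also ranked by the correlation of deviations from genotype means over the 12 libraries, as a description with no test. The 10 genes most like the index, out of 16601, included Cldn19 (r = 0.963), Dhh (0.963), Mlip (0.942), Cfap100 (0.941), Plekha4 (0.931), Morc4 (0.912), Sphk2 (0.912), Tyro3 (0.904) and Gm8337 (0.903). As the highest of so many genes, these r values are inflated. Mlip, Cfap100, Morc4, Sphk2, Tyro3 and Gm8337 did not pass edgeR's test of the slope (lowest adjusted p = 0.209, for Mlip). Their slopes were 0.17 to 0.76.

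**Figure D3:**
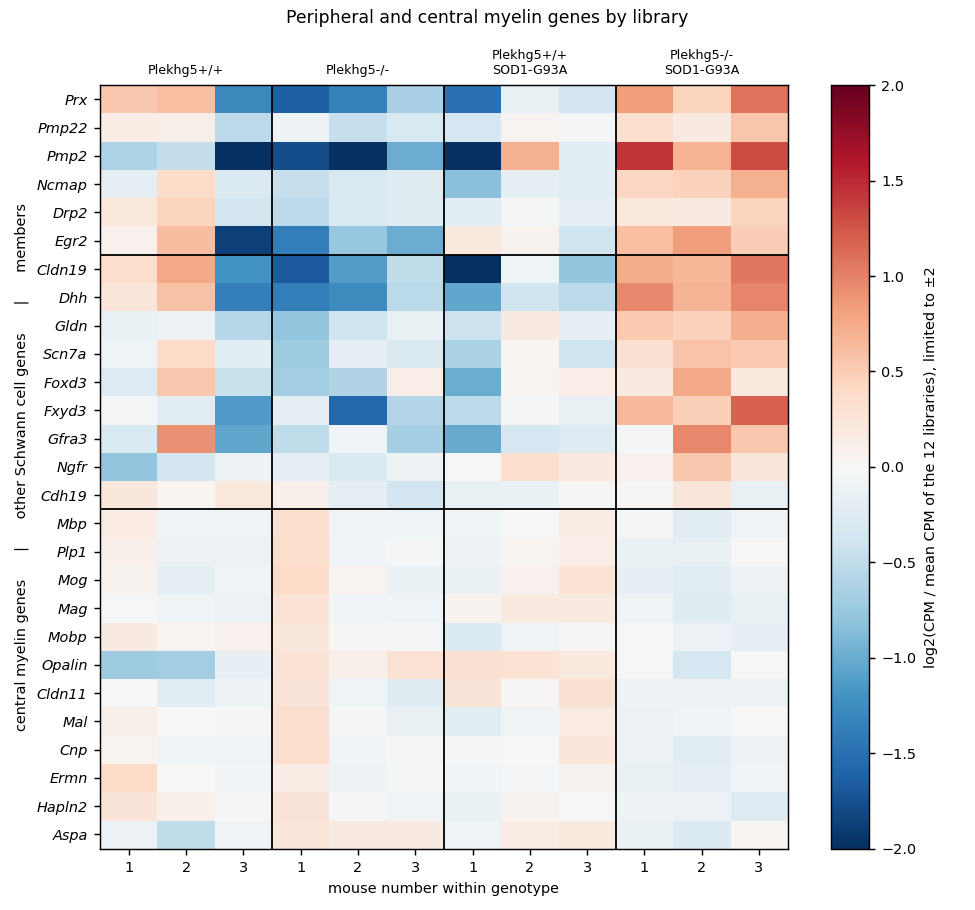
Log2 ratio of CPM to the mean of the 12 libraries (color, limited to ±2) for the 6 genes, 9 other Schwann cell genes and 12 central myelin genes (rows) in each mouse (columns, by genotype). The 3 columns of Plekhg5-/- mice, Plekhg5+/+ mouse 3 and Plekhg5+/+ SOD1-G93A mouse 1 are blue from Prx to Dhh, with few exceptions such as Egr2 in the last. The 3 columns of Plekhg5-/- SOD1-G93A mice are red in these rows, while the central myelin rows stay pale apart from Opalin.

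The oligodendrocyte genes had small slopes on the index, and between genotypes most of their differences were opposite in sign to those of the 6 genes. Of 12 central myelin genes 0 were called for the index by edgeR, 1 (Opalin, -0.24, SE 0.107) had a slope at an unadjusted p under 0.05, and their median slope was 0.03. Their total differed 1.42-fold over the 12 libraries, against 1.72-fold for the total of the 9 other Schwann cell genes. The most abundant of these 9 genes, Cdh19, differed 1.55-fold and weighs most in that total. Between genotypes, Opalin was the only central myelin gene that passed the test, rising with SOD1-G93A in Plekhg5+/+ mice by 0.76 (SE 0.135, adjusted p = 0.0165). In that comparison 4 of 12 were higher and 1 lower at an unadjusted p under 0.05, against 10.6% and 7.51% of all genes. For the transgene without Plekhg5, all 12 were lower in the mean, with log2 differences of -0.34 to -0.10 (median -0.20). There, 0 of 12 were called by edgeR, while Opalin, Aspa, Mog, Cnp and Mag, 5 of 12, were lower at an unadjusted p under 0.05, against 2.10% of all genes, and 4 of 12 were lower without overlap, against 5.24%. For Plekhg5 loss with the transgene, 11 of 12 were lower in the mean (median -0.17), with 0 called by edgeR, 3 at an unadjusted p under 0.05 against 5.05% of all genes, and 5 without overlap against 10%. Without the transgene, Opalin (0.72, SE 0.135, adjusted p = 0.236) and Aspa (0.42, SE 0.112, adjusted p = 0.713), 2 of 12, were higher in Plekhg5-/- mice at an unadjusted p under 0.05, against 2.53% of all genes. The interaction term was negative for 11 of 12 (median -0.31), with 0 called by edgeR and 6 at an unadjusted p under 0.05, against 5.18% of all genes. The number of genes called for SOD1-G93A with Plekhg5 present, where Opalin passed, was 498 with all libraries, 4 without Plekhg5+/+ mouse 1 and 2 without Plekhg5+/+ mouse 2.

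The upstream genes of the myelination program gave no calls. The list held Nrg1, the axonal signal, with its receptors Erbb2 and Erbb3, the adhesion receptor Adgrg6, and the factors Sox10, Pou3f1, Pou3f2, Nab1, Nab2, Nfatc4, Zeb2 and Tead1. Of these 12 genes 0 were called by edgeR in any genotype comparison or for the index, and their total differed 1.16-fold over the libraries, from 500 to 580 CPM. The total hides opposite differences of single genes. With SOD1-G93A in Plekhg5+/+ mice, Pou3f1 (0.65, SE 0.189, adjusted p = 0.0923) and Zeb2 (0.25, SE 0.0859, adjusted p = 0.142) were higher and Nrg1 (-0.31, SE 0.120, adjusted p = 0.187) and Pou3f2 (-0.23, SE 0.0789, adjusted p = 0.148) lower at an unadjusted p under 0.05, where 10.6% of all genes were higher and 7.51% lower. Without Plekhg5, Erbb2 (0.52, SE 0.208, adjusted p = 0.878) and Adgrg6 (0.36, SE 0.138, adjusted p = 0.841) were higher with the transgene at an unadjusted p under 0.05, against 3.27% of all genes. Pou3f1 and Erbb2 spanned 2.09-fold and 2.17-fold over the libraries. For the index, 0 had a positive and 1 a negative slope at an unadjusted p under 0.05: Pou3f1, a factor of the promyelinating stage, at -0.45 (SE 0.126, adjusted p = 1.0). Most of these genes are also expressed by oligodendrocytes or neurons of the cord, as Sox10 and Nrg1 are.

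The partners of Prx and Drp2 at the cell surface were 11 genes, among them dystroglycan (Dag1), utrophin (Utrn), the integrin Itga6 with Itgb4, and the laminins Lama2, Lamb1 and Lamc1. Of these, 0 were called by edgeR in any comparison or for the index. For the transgene without Plekhg5, 7 of 11 were higher at an unadjusted p under 0.05, against 3.27% of all genes. Lamb1, a laminin chain of basal laminae, was at 7.67, 10 and 11.3 CPM in Plekhg5-/- mice and at 15.8, 18.2 and 17 CPM in Plekhg5-/- SOD1-G93A mice, a log2 difference of 0.81 (SE 0.170, adjusted p = 0.344). The 10 meningeal and fibroblast genes had 5 higher in the same sense, with none called by edgeR in this comparison, and summed to 255, 471 and 394 CPM in Plekhg5-/- SOD1-G93A against 159, 283 and 172 CPM in Plekhg5-/- mice. Whether the root covers and the meninges took part in these differences was not tested.

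Genes that Schwann cells turn on after nerve injury, Gdnf, Shh, Artn, Btc, Runx2, Jun and Sox2, gave 0 of 7 calls by edgeR in all comparisons and for the index. At an unadjusted p under 0.05, Sox2 (0.36, SE 0.110, adjusted p = 0.106), 1 of 7, was higher with SOD1-G93A in Plekhg5+/+ mice, against 10.6% of all genes, and 0 of 7 in the other comparisons. These shares are near those of all genes. Among 10 relatives of the 6 genes, Emp1 and Emp3, the epithelial membrane proteins of the Pmp22 family, rose with SOD1-G93A in Plekhg5+/+ mice, by 1.03 (SE 0.218, adjusted p = 0.0312) and by 1.10 (SE 0.219, adjusted p = 0.0244). These 2 of 10 calls stand against 2.47% of all genes called in that comparison. The number of all genes called there ran from 2 to 771 with single libraries left out. Pmp22 was at -0.04 in that comparison. The other 8, Emp2, the fatty acid binding proteins Fabp3, Fabp4, Fabp5 and Fabp7, and Egr1, Egr3 and Egr4, were not called in any comparison. The index went with none of the 10 past the threshold.

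**Figure D4:**
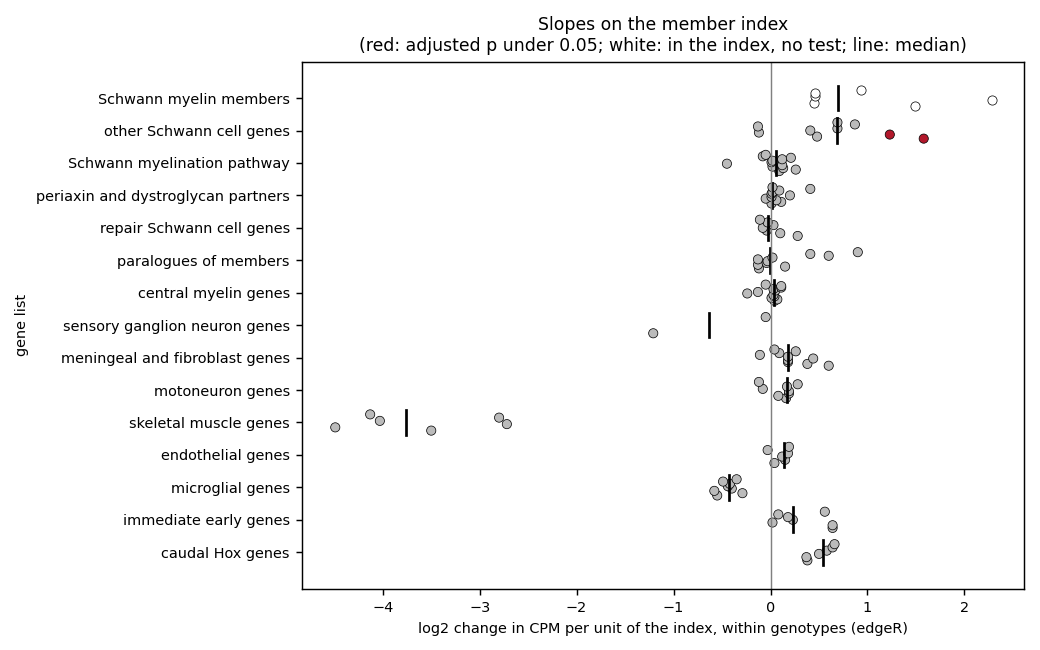
Log2 change in CPM per unit of the index within genotypes (x axis, edgeR) for each tested gene of 15 lists (y axis); lines give list medians, red points have an adjusted p under 0.05 and white points are the 6 genes that make the index. Red points stand only in the list of other Schwann cell genes (Cldn19 and Dhh, 1.58 and 1.23), and skeletal muscle genes lie far on the left (median -3.77).

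Muscle and ganglion transcripts did not rank the mice as the index did. Outside Plekhg5-/- SOD1-G93A mouse 2, the ganglion total of 3.58 to 5.83 CPM was mostly P2rx3, at 2.78 to 4.46 CPM. For ganglion transcripts the statement therefore rests on 1 library. The muscle genes had negative slopes on the index, of -4.49 to -2.72, with 0 of 6 called by edgeR and 4 of 6 at an unadjusted p under 0.05 in the negative direction, against 2.43% of all genes. Plekhg5+/+ mouse 3 had the highest muscle total (147 CPM) and the lowest index (-0.88). In the other genotypes the library with most muscle transcripts was in the middle or, in Plekhg5-/- SOD1-G93A mouse 2, the lowest for the index. The latter mouse had 948 counts of sensory ganglion neuron genes, against 154 and 185 in mice 1 and 3, and its Prx (46.8 CPM), Pmp22 (212 CPM), Pmp2 (5.83 CPM) and Drp2 (90.6 CPM) were the lowest of its genotype. Its Egr2 (4.37 CPM), Cdh19 (43.2 CPM), Scn7a (18.4 CPM), Foxd3, Ngfr and Gfra3 were the highest of its genotype, Ncmap (9.17 CPM) lay between the other mice, and the total of the 9 other Schwann cell genes, 92.5 CPM, was the highest of the 12 libraries. Leaving out the 4 libraries that exceed 20 CPM of muscle genes took 1 mouse from each genotype and left 2 in each. What part the smaller groups had in the counts was not tested, and the numbers of all genes called that moved are given below. In this fit 0 of 6 genes were called in any comparison and the index went with 15 genes. Of these, 2 had a positive slope, Cldn19 among them, and 13 a negative slope, among them C1qa, C1qb, C1qc, Trem2 and Serpina3n.

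**Figure D5:**
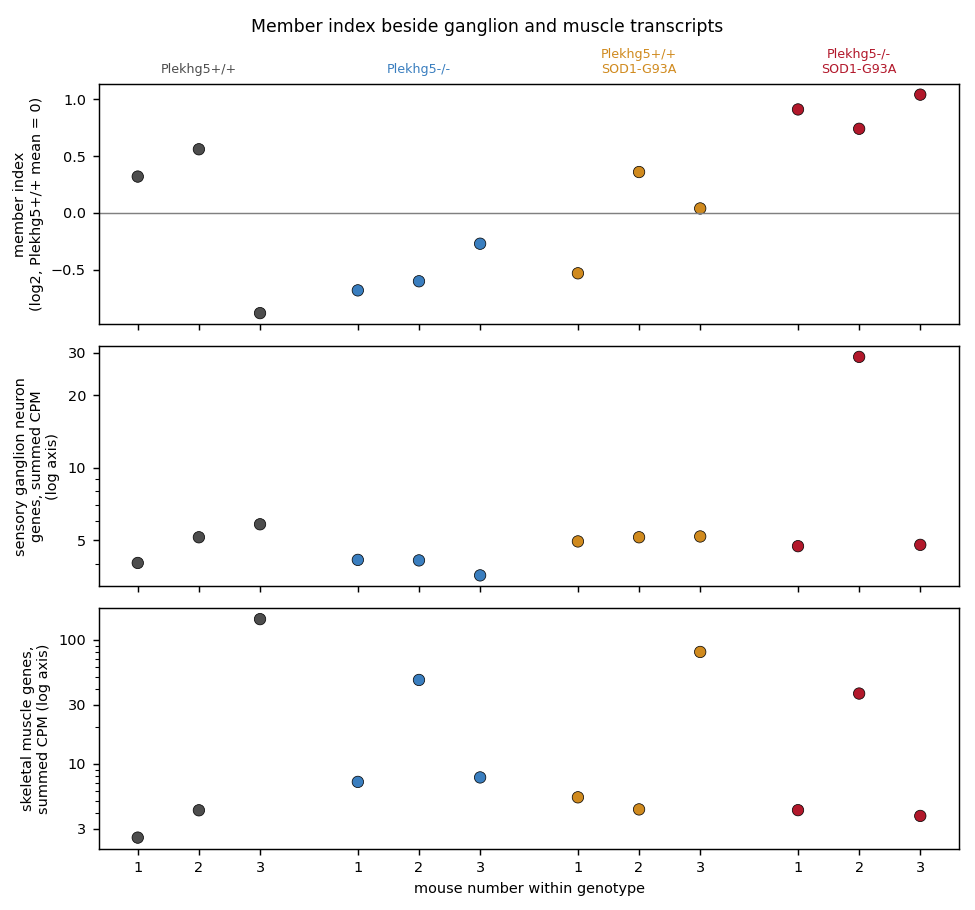
The index (top, log2 units), the summed CPM of 7 sensory ganglion neuron genes (middle, log axis) and of 6 skeletal muscle genes (bottom, log axis) in each of the 12 libraries (x axis, by genotype). The library with the most ganglion transcripts, Plekhg5-/- SOD1-G93A mouse 2 at 28.8 CPM, has an index of 0.74, below 0.91 and 1.04 in mice 1 and 3.

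The genotype calls were also counted in a fit with genotype and index together. With SOD1-G93A in Plekhg5+/+ mice, edgeR called 489 genes (2.43% of all genes) with the index and 498 without, 432 of them shared. Among the genes called without the index were all 8 microglial genes, with log2 differences of 0.89 to 2.36. For the transgene without Plekhg5, 0 genes were called with the index. Human SOD1 was the gene called without it, at 4421 to 5638 CPM in transgenic and at most 5.47 CPM in other libraries, so a call lost in this fit does not show that a gene's difference goes with the index. The index itself did not overlap between these genotypes, at -0.68 to -0.27 against 0.74 to 1.04, nor between the SOD1-G93A genotypes with and without Plekhg5. For Plekhg5 loss, the counts were 6 with and 6 without the index in the absence of the transgene, 5 of them shared, and 4 against 7 in its presence. The interaction had 0 calls with and without the index. A gene of the 6 enters its own index, so Prx, which was called in the first of these fits, cannot be read as a change.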

How the data were processed

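Spinal cord RNA of 12 mice, 3 per genotype, was sequenced from poly-A selected, stranded libraries. Per the submitters' processing notes and the methods of the study, the authors trimmed reads with Cutadapt (2.4), mapped them with STAR (2.7.2b) to GRCm38.p6 with the human SOD1 cDNA added and counted them by strand on RefSeq exons with featureCounts (1.6.4). Reads with several matches or overlapping features were divided, so the values the authors deposited are expected counts (estimated counts that need not be whole) per gene, with no normalization and with replicates kept apart. In this table, 0 columns remained without a sample.

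Counts were rounded and tested with edgeR (4.0.16, R 4.3.3): filterByExpr, TMM scaling, one robust quasi-likelihood fit of the 4 genotypes, and Benjamini-Hochberg adjustment over 20155 genes with a threshold of 0.05. CPM are TMM-scaled. The index is the mean log2 CPM of the 6 genes (prior count 2), and its slope was tested with genotype in the model. Alternatives were DESeq2 (1.42.0) with and without a fold change prior, its size factors, no filter, only the genotypes compared, Y-linked transcripts or the index as a covariate, other forms of the index, a replicate block, each library left out in turn, and, chosen after seeing the data, leaving out the 4 libraries with over 20 CPM of muscle genes. The fits were tested on simulated data. The 6 genes, the 14 other gene lists and the tests were chosen with earlier results of these data known. Genes named are the 6 genes, the genes of the lists, the label checks and the 10 genes most correlated with the index (mean of at least 1 CPM); the genes called for the index were named after their values were seen, and a few results are not reported here. Gene positions are those deposited with the counts, on RefSeq annotation of GRCm38, and promoter sequences are from RefSeq. The replicates are different mice with numbers that pair nothing in the labels. The depth was 30415643 to 38743628 counts per library, and Egr2 and Pmp2, with the fewest counts, carry the largest counting error.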

Additional observations from a re-analysis of the deposited data

How the results depend on the processing

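Of 594 alternative values of the 30 log2 fold changes of the 6 genes, 570 kept their direction and their side of the threshold, 16 passed the threshold and 8 changed sign. The sign changes were in SOD1-G93A with Plekhg5 present: Egr2 was at -0.03 with Y-linked transcripts as a covariate and at -0.25 without the muscle libraries, and ran from -0.41 to 0.54 with single libraries left out, and Pmp22 ran from -0.24 to 0.07. The number of the 6 genes called moved with DESeq2 without and with the prior to 2 and 1 for SOD1-G93A without Plekhg5, to 1 and 1 for Plekhg5 loss with SOD1-G93A and to 2 and 2 for the interaction. It was 2 for SOD1-G93A without Plekhg5 with only the 2 genotypes compared. With single libraries left out it ran from 0 to 1 for SOD1-G93A without Plekhg5, from 0 to 2 for Plekhg5 loss without SOD1-G93A and from 0 to 2 for the interaction.

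The number of all genes called, in the order DESeq2 without and with the prior, was 1159 and 1190 for SOD1-G93A with Plekhg5, 45 and 41 without Plekhg5, 34 and 32 for Plekhg5 loss without SOD1-G93A, 72 and 114 with it, 95 and 112 for the interaction and 11 and 26 for the index. With only the 2 genotypes compared it was 3 for SOD1-G93A with and 20 without Plekhg5, and 11 for Plekhg5 loss with SOD1-G93A. Without the muscle libraries, with 2 mice left per genotype, it was 124 for SOD1-G93A with Plekhg5, 2 for Plekhg5 loss with SOD1-G93A, 2 for the interaction and 15 for the index. It was 1 for the interaction without the filter. With the index as a covariate it was 0 for SOD1-G93A without Plekhg5 and 4 for Plekhg5 loss with SOD1-G93A. An index without Pmp22 and Egr2 gave 2 genes. With single libraries left out, the counts ran from 2 to 771, 1 to 9, 5 to 59, 4 to 8 and 0 to 40 for the 5 comparisons and from 2 to 54 for the index. The causes were not tested.

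With the mouse number as a replicate block, the counts were 631, 1, 8, 8 and 0 genes, 0 of the 6 genes in each comparison and 2 genes for the index. Numbers belong to different mice, and deviations of same-numbered mice correlated at -0.163 to 0.318, so they were not treated as pairs. Depth limits Pmp2 and Egr2, with as few as 16 and 22 counts.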

Other observations

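Other gene groups of the cord were read against the index in the same fit, with 0 calls by edgeR in each. All 6 caudal Hox genes, which mark the lower cord, were higher for the transgene without Plekhg5 (median log2 difference 0.38) and for Plekhg5 loss with the transgene (0.44). All 6 were lower for the transgene with Plekhg5 (-0.39) and for Plekhg5 loss without the transgene (-0.23). In each of these, 0 of 6 had an unadjusted p under 0.05, and the part of cord level in the differences of the members was not tested. On the index the Hox genes had slopes of 0.37 to 0.66, and none reached an unadjusted p under 0.05. Of 7 immediate early genes, Fosb (0.64, SE 0.177), Nr4a1 (0.56, SE 0.244) and Arc (0.23, SE 0.0997) did, with positive slopes, against 1.25% of all genes. The 8 motoneuron genes had a median slope of 0.16 and the 6 endothelial genes of 0.13, with 0 at an unadjusted p under 0.05 in either list. The 2 of 7 sensory ganglion neuron genes that passed the filter, Avil and P2rx3, had slopes between -1.21 and -0.05. Of the 10 meningeal and fibroblast genes, Dcn, the decorin of connective tissue, was the only one at an unadjusted p under 0.05, with a slope of 0.60 (SE 0.257). Of 8 microglial genes, 5 had a negative slope at an unadjusted p under 0.05, against 2.43% of all genes, and the median was -0.43.

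Endothelial genes differed between the SOD1-G93A genotypes in unadjusted tests. In the comparison of Plekhg5-/- SOD1-G93A with Plekhg5+/+ SOD1-G93A mice, 5 of 6 were higher at an unadjusted p under 0.05, against 3.59% of all genes, and 0 of 6 were called after adjustment by edgeR. Their totals were 212, 192 and 165 CPM in Plekhg5-/- SOD1-G93A and 143, 145 and 120 CPM in Plekhg5+/+ SOD1-G93A mice, which do not overlap. The totals of 160, 178 and 159 CPM in Plekhg5+/+ and of 107, 148 and 186 CPM in Plekhg5-/- mice overlap with those of Plekhg5-/- SOD1-G93A mice. For the transgene without Plekhg5, 3 of 6 endothelial genes were higher at an unadjusted p under 0.05, against 3.27% of all genes. With Plekhg5, 2 of 6 were lower, against 7.51%. The interaction term was positive at that threshold for 4 of 6, against 3.87%. After adjustment, edgeR called 0 of 6 in each.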
